A study of Mus musculus with 8 samples.

Results

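The genes that encode the proteins of the cytosolic ribosome were followed in effector Treg (eTreg) cells with and without Blimp1 (encoded by Prdm1). The members were all genes whose symbol is Rps or Rpl followed by a number, leaving out pseudogenes (symbols with -ps) and the S6 kinases, and with more than 80 counts over the series. This gave 85 genes of the 16611 in the deposited normalized table and of the 49212 counted. Of the 85, 73 carry the plain name of a ribosomal protein (canonical members), 30 of the small and 43 of the large subunit, and 12 are paralogs, copies or partners such as Rps27l, Rpl22l1, Rps27rt and Rps19bp1. Another 3 names met the naming rule but not the count limit. Rpl10l, the testis paralog of Rpl10, and Rps12l1 had 0 counts in all 8 libraries. A floor of 3 counts corresponds to 0.0683 to 0.108 CPM, the count of a gene after the counts on all genes of each library are scaled to the same total. Rpl3l, the muscle paralog of Rpl3, had 28 counts in all.

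RNA was sequenced from CD45+CD44+YFP+CD4+CD3+ cells of C57BL/6 mice that all carried the FoxP3YFP-Cre allele, which marks Foxp3-expressing cells and drives Cre in them. FoxP3YFP-Cre mice were the WT and Prdm1fl/flFoxP3YFP-Cre mice the KO, in which Cre deletes Prdm1 in Foxp3-expressing cells only. Every mouse bore a subcutaneous B16.OVA melanoma and received NP-OVA on day 0, in complete Freund's adjuvant, and again on day 7, in incomplete adjuvant, and cells were sorted from tumors (TIL) and spleens at a tumor size of at most 1.5 cm3, the spleens after CD4 enrichment. There were 2 libraries in each of the 4 groups, and the labels do not say whether they came from separate mice, so p-values measure the spread between these libraries alone. Mice were generally 5 to 10 weeks old and of either sex.

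A eukaryotic ribosome holds 1 copy of each canonical protein, and the genes are transcribed at high levels in nearly all cells. Their mRNAs belong to the TOP class, which starts with a C followed by a run of pyrimidines, and mTOR, through LARP1, decides how well such mRNAs are translated and kept. T cells raise ribosome production on activation, with Myc and mTOR as the main drivers. Some members act outside the ribosome, as do Rpl5 and Rpl11, which hold Mdm2 together with 5S rRNA. A few have paralogs that can take their place, such as Rpl22l1 for Rpl22, a protein needed by developing T cells, and Rps27l, a target of p53, for Rps27.

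A start of the TOP kind was searched for in RefSeq promoter windows of build GRCm38.p6, on the strand of the gene, as a C within 3 bases of the annotated start that begins a run of at least 5 bases of C and T. Windows were at hand for 62 of the 85 members. Of these, 25 (40.3%) had such a start, against 1582 of 10567 other genes of the normalized table (15%) and 9 of 69 mitochondrial ribosomal protein genes (13%). A match is a description of these letters, and a missing one can come from an annotated start that lies a few bases off. The members that the results below turn on are shown with 15 bases upstream and the first 15 transcribed bases (30 in all, 5′ to 3′), the run in capitals where there is one. The Rps27 and Rps27l pair and Rpl22 and its paralog Rpl22l1 are given to show that partners differ at their starts, Rps6 for a typical run, and Rpl4 and Rpl37a as members whose share of the summed members moved in opposite directions between the tissues, though both had a lower mean CPM in TIL than in spleen, and which have none at the annotated start. For genes with several windows the one nearest the counted gene was taken, and the printed starts lie 0 to 72 bases from the end of the counted gene.
Rps27 (chr3:90213634-90213663, minus strand): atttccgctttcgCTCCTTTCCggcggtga
Rps27l (chr9:66946071-66946100, plus strand): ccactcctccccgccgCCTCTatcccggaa
Rps6 (chr4:86857353-86857382, minus strand): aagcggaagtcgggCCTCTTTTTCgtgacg
Rpl22 (chr4:152325711-152325740, plus strand): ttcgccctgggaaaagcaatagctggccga
Rpl22l1 (chr3:28805493-28805522, plus strand): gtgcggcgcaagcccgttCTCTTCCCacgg
Rpl4 (chr9:64173372-64173401, plus strand): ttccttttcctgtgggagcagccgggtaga
Rpl37a (chr1:72711245-72711274, plus strand): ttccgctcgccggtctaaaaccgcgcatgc

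The libraries held between 27834676 and 43903859 counts on genes, and a member had at least 299 counts over the series. Levels below are CPM without further scaling, and fold changes are those of edgeR after TMM scaling. The Prdm1 gene total, which includes exons outside any deleted part and so does not check the labels, came to 102 and 184.5 CPM in WT TIL, 80.9 and 72.1 CPM in KO TIL, 59.1 and 20.8 CPM in WT spleen, and 43.1 and 60.1 CPM in KO spleen. The markers of the sorted type were not uniform: in the 2 KO TIL libraries Cd4 was at 132 and 63.6 CPM and Foxp3 at 9.12 and 2.87 CPM, against Cd4 at 756 and 1043 CPM and Foxp3 at 23.9 and 58.1 CPM in WT TIL. The summed markers of macrophages ran from 411 to 12269 CPM and those of melanoma cells from 797 to 2854 CPM in the 4 TIL libraries, highest in KO replicate 1 for both. Fewer cells of a type and less RNA per cell cannot be told apart in such bulk samples. One library stood apart for the genes described here. WT spleen replicate 2 had the highest level of the 4 splenic libraries for 84 of the 85 members, so the main splenic results are given with and without it. The same count was not made over all genes.

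Levels of different members were compared as CPM per kilobase of exon. The 73 canonical members had means over the 8 libraries of 46.1 CPM per kilobase and more (median 264), and 72 of them averaged at least 100 CPM before the division by length. Among the highest were Rpl32 at 1026 ± 591 CPM per kilobase (SD over 8 libraries), Rps27 at 953 ± 812 and Rps3a1 at 916 ± 344. The means of these 3 neighbors lay within their SDs, which include the differences between libraries and tissues. Within each library, Rps27 was above Rpl32 in every splenic library and below it in every TIL library. At the lower end of the canonical members stood Rpl13a, which joins an interferon-induced translation silencing complex, at 46.1 ± 23.3, and Rpl22 at 47.5 ± 30.8 CPM per kilobase. The exon length used here joins all annotated exons, and for long alternative exons it lowers the level. By the length of the principal transcript, Rps27 came 1st, Rpl32 10th and Rps3a1 14th, so the order holds for the exon length only. The members that are not canonical filled the 8 lowest places, from Rpl7l1 at 43.9 ± 8.02 to Rpl39l, a testis-enriched paralog of Rpl39, at 1.40 ± 1.06 CPM per kilobase. Reads of Rps27rt, Rpl37rt, Rpl6l, Rps3a2 and Rps3a3 can be shared with a near-identical gene, and counting of unique reads could split or drop them, so their levels are uncertain.

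The proportions among members were broadly alike in all libraries, apart from the shifts in share given below. Over the 73 canonical members, the Pearson correlation of log2 shares between any pair of libraries lay between 0.894 and 0.998, a description across genes of the same libraries. The levels per kilobase of these members spanned 26.6-fold. Such a spread makes the correlation high, so it says little about single members. The sum varied as well. The 85 members took 3.58% and 8.83% of all gene counts in WT spleen, 3.71% and 3.97% in KO spleen, 2.44% and 2.98% in WT TIL, and 1.94% and 3.73% in KO TIL (replicates 1 and 2). As group means this was 6.21 ± 3.71% (SD, n = 2) in WT spleen, 3.84 ± 0.186% in KO spleen, 2.71 ± 0.380% in WT TIL and 2.84 ± 1.26% in KO TIL. Without WT spleen replicate 2, the 3 splenic libraries lay between 3.58% and 3.97%. The TIL libraries of both genotypes interleaved, since the KO pair had both the lowest and the highest value, and KO TIL replicate 2 lay within the range of those 3 splenic libraries. Weighting each gene by its length gave 10.04% for WT spleen replicate 2 and 6.07% to 6.65% for the other splenic libraries, so a high value in this library did not depend on the unit.

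**Figure D1:**
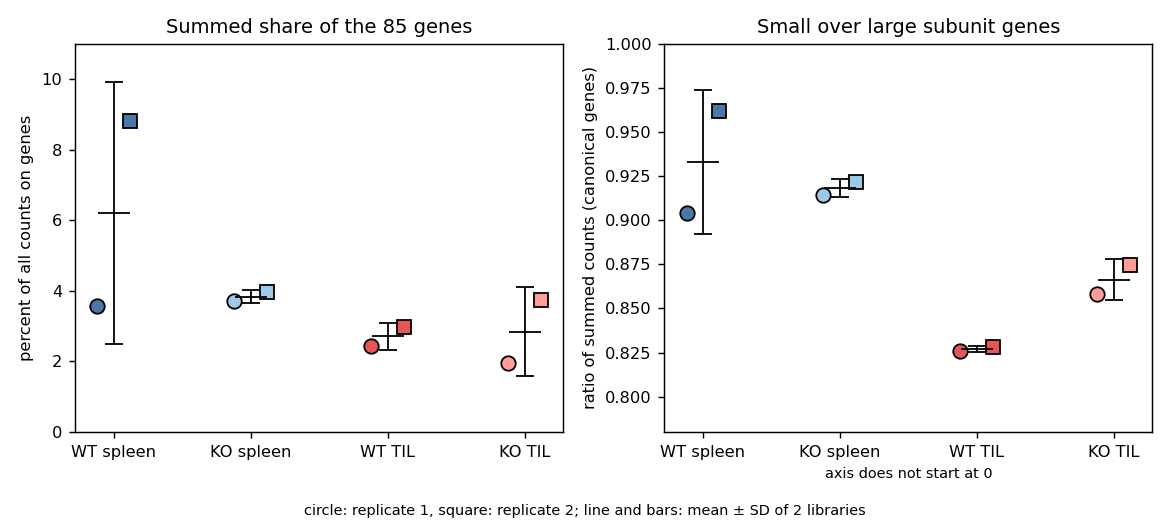
Left, percent of all counts on genes taken by the 85 ribosomal protein genes, and right, summed counts of canonical small subunit genes over those of large subunit genes (the axis does not start at 0). Each point is 1 library (circle replicate 1, square replicate 2) and lines and bars are mean ± SD of 2 libraries. WT spleen replicate 2 sits at 8.83%, against 1.94% to 3.97% in the other 7 libraries, while the ratio on the right is 0.826 to 0.875 in the 4 TIL libraries and 0.904 to 0.962 in the 4 splenic ones.

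The excess in WT spleen replicate 2 ran through nearly the whole family. The fold of this library over the mean of the other 3 splenic libraries had a median of 2.503 over the 85 members and ran from 0.731 for Rpl7l1 to 3.38 for Rpl12. Rpl12, a protein at the base of the ribosomal stalk, was at 259, 273 and 313 CPM in the other 3 splenic libraries and at 953 CPM in this one. Rps6, the target of the S6 kinases, was at 605, 605 and 677 CPM there and at 1035 CPM here. Rpl4, with one of the longest reading frames of the family, was at 888, 877 and 972 CPM there and at 1098 CPM here. Rpl7l1, the paralog of Rpl7, was the exception, at 133, 148 and 128 CPM there and 99.6 CPM here.

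**Figure D2:**
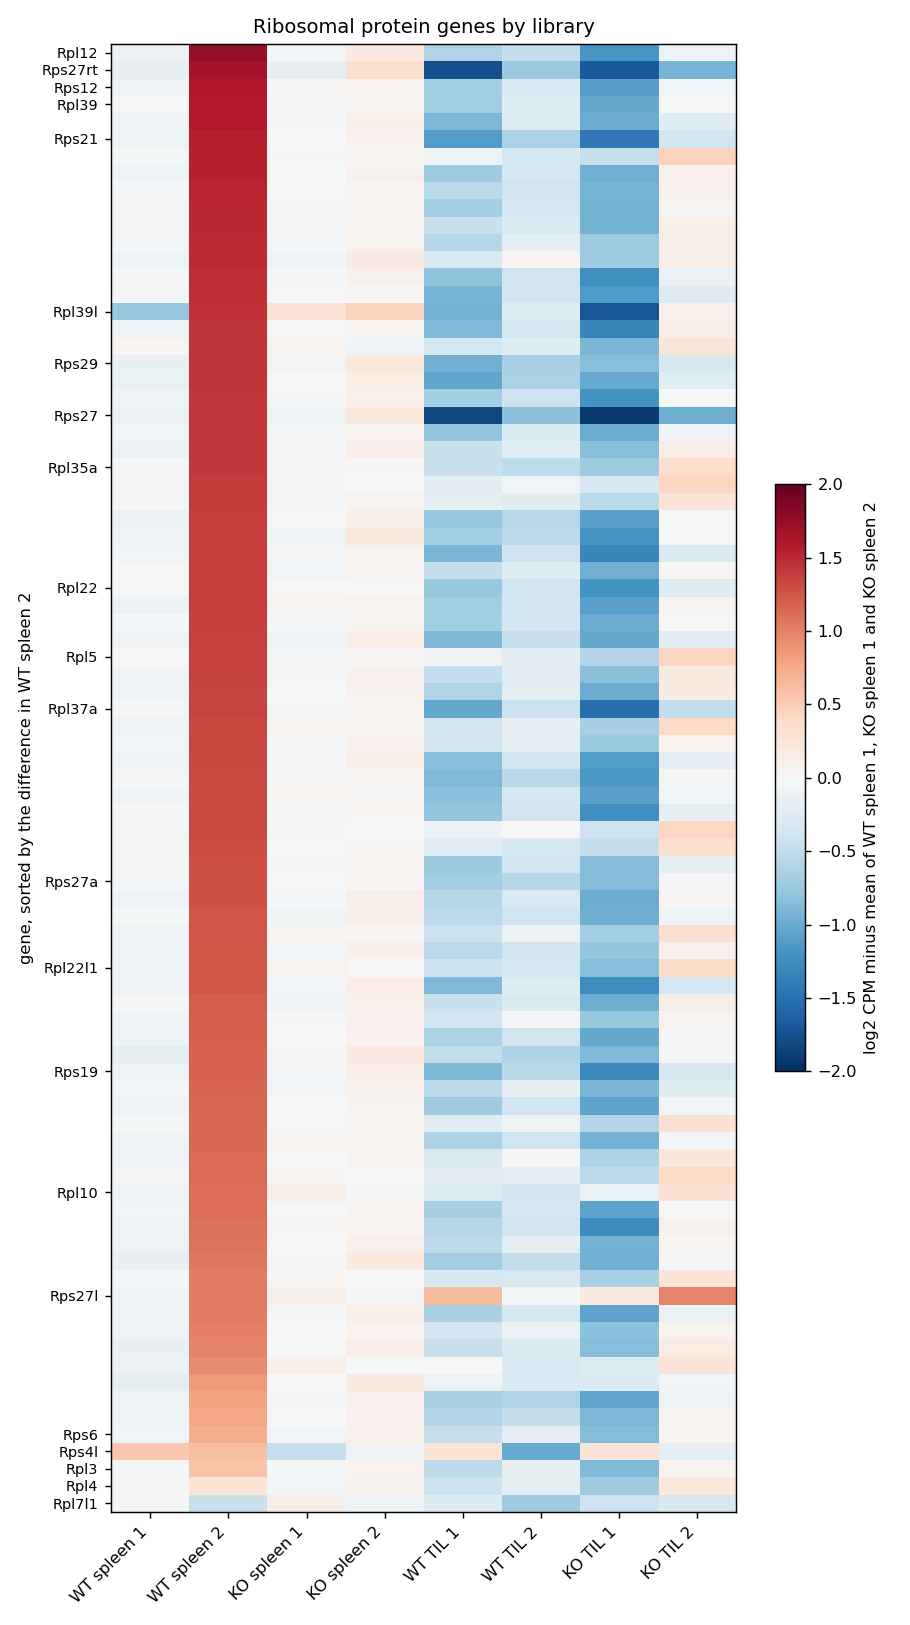
Log2 CPM of each of the 85 genes (rows, 22 of them labeled, sorted by their value in WT spleen replicate 2) in the 8 libraries (columns), minus the mean of WT spleen 1, KO spleen 1 and KO spleen 2. The column of WT spleen 2 is red from Rpl12 at the top to Rpl4 near the bottom, the other splenic columns are near white, KO TIL 1 is the bluest column, and Rps27l is red where Rps27 is blue in 3 TIL columns.

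The size of this excess went with the length of the reading frame, in members and in other genes alike. Among members, the median log2 difference between WT spleen replicate 2 and the other splenic libraries was 1.43 for the 12 with a coding length of up to 300 nt, 1.37 for 28 longer ones of up to 450 nt, 1.27 for 19 of up to 600 nt and 1.12 for 19 of up to 900 nt. The 2 members over 1200 nt, Rpl3 and Rpl4, had a median of 0.42. Among other protein-coding genes of at least 10 CPM, the median went from 0.94 in 192 genes of up to 300 nt, through 0.64, 0.33, 0.08 and -0.21, to -0.80 in 4725 genes over 1200 nt. The median of the members lay above that of the other genes in each bin that held any. Over the 73 canonical members the Pearson correlation of log2 coding length with the difference was -0.59, a description of 1 library against 3. For the other 3 splenic libraries, each against the other 2, no bin of members or of other genes had a median of more than 0.15 in size. In WT spleen replicate 2 the genes of the mitochondrial genome also took their highest share (2.49%, against 1.32% to 1.73% in the other splenic libraries), Cd4 was at 381 CPM against 975 to 1070 CPM, and the summed red cell markers were at 1332 CPM against 89.2 to 282 CPM, with macrophage markers at 1489 CPM against 249 to 696 CPM. The part of these in the excess was not tested.

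**Figure D3:**
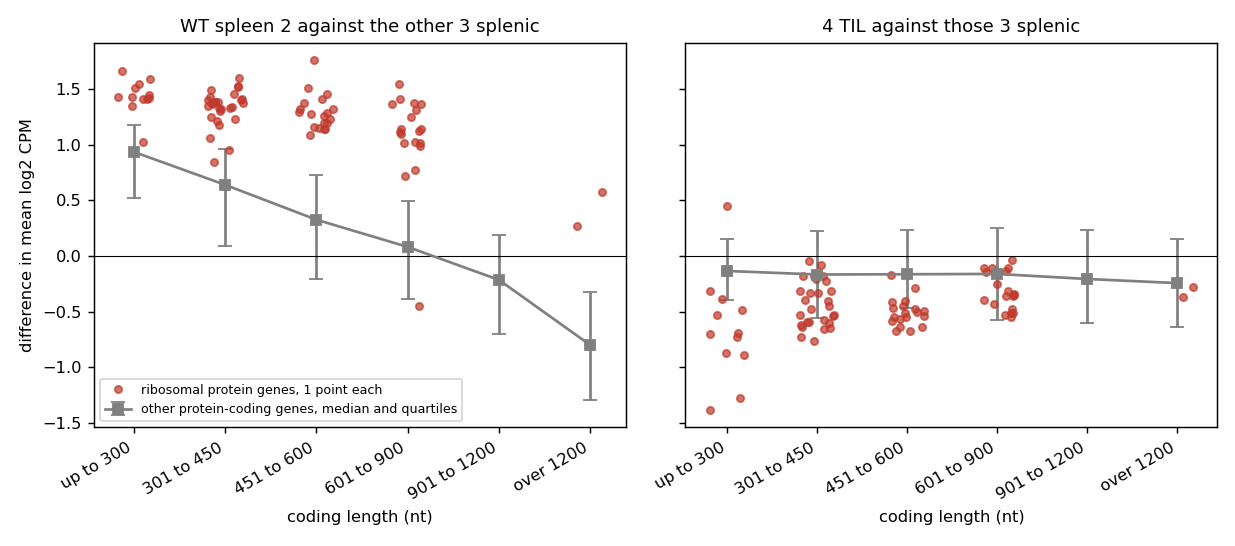
Difference in mean log2 CPM (y axis) by coding length in nt (x axis), for WT spleen replicate 2 against the other 3 splenic libraries (left) and for the 4 TIL libraries against those 3 (right). Red points are single ribosomal protein genes and grey squares with bars are the median and quartiles of other protein-coding genes. On the left the grey line falls from 0.94 to -0.80 and the members other than Rpl7l1 lie above it, and on the right the grey line is nearly level and the 4 lowest members, Rps27, Rps27rt, Rps21 and Rpl37a, are in the bin of up to 300 nt.

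In TIL eTreg cells, no member passed the test between KO and WT. Of the 85 members tested, 0 passed the threshold of edgeR's quasi-likelihood test (Benjamini-Hochberg adjusted p under 0.05 and an absolute log2 fold change over 1), and of all 15935 genes tested 0% did. At an unadjusted p under 0.05 it was 0 members, with 9.87% of all genes, and with DESeq2's Wald test 0 members, with 4.68% of all genes. The median log2 fold change of members was 0.09, with 70 above 0 and 15 below, against 0.04 for all genes, and the extremes were -0.20 (Rpl37a) and 0.44 (Rpl10). Rpl10, which joins the large subunit late and whose gene lies on the X chromosome, had 415 and 383 CPM in WT TIL and 452 and 611 CPM in KO TIL. It was the one member whose KO libraries lay wholly above the WT ones, where 17.1% of all genes did, and 0 members lay wholly below, where 20.1% did. Its fold change did not pass (log2 0.44 with a standard error of 0.30 and an edgeR adjusted p of 0.756). Rpl37a had 428 and 642 CPM in WT TIL and 305 and 615 CPM in KO TIL, and Rpl19 had a log2 fold change of -0.18. At the upper end Rpl35a had 0.41 and Rps4l, a single-exon relative of Rps4x, 0.32.

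The spread between the KO TIL libraries was wide for the members. KO replicate 1 was the lowest of the 4 TIL libraries for 76 members and KO replicate 2 the highest for 77, and the fold between them had a median of 1.94 (0.741 to 4.51). These counts were made for the members only, with no share over all genes beside them. The median log2 fold change of KO against WT was 0.46 without KO replicate 1 and -0.42 without KO replicate 2. Rps19, the gene most often mutated in Diamond-Blackfan anemia, shows the pattern, with 607 and 764 CPM in the WT and 460 and 903 CPM in the KO libraries. Rps3, at the mRNA entry channel, had 733 and 921 CPM in the WT and 561 and 1165 CPM in the KO libraries. Rpl11 had 198 and 239.5 CPM against 147 and 301.1 CPM, and Rpl5, its partner with 5S rRNA, 379 and 344 CPM against 264 and 535.5 CPM. In each of these 4 genes both WT values fell inside the KO range. Over the same 4 libraries the summed CD3 and Cd4 markers came to 3349 and 4477 CPM in the WT and 830 and 2924 CPM in the KO libraries, those of CD8 T cells to 139 and 46.3 CPM against 362 and 2134 CPM, and those of macrophages to 2571 and 411 CPM against 12269 and 1430 CPM. Their part in the member levels was not tested.

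In splenic eTreg cells, the direction of the genotype difference depended on WT replicate 2. With all 4 libraries the median log2 fold change of members between KO and WT was -0.87 (all genes -0.02), with 84 members below 0, and without that library it was 0.11 (all genes 0.01), with 82 above 0. By edgeR's test 0 of 85 members passed, where 0% of 16583 genes did. At an unadjusted p under 0.05 it was 0 members against 2.95% of genes, and by DESeq2 0 members against 0.416%. The lowest were Rpl12 (log2 fold change -1.17 with a standard error of 0.63, adjusted p = 0.878), Rpl39 (-1.11) and Rps12 (-1.08), and the highest were Rpl7l1 (0.18), Rpl4 (-0.19) and Rpl3 (-0.38), by edgeR's test. When WT replicate 1 was left out instead, so that replicate 2 alone stood for the WT, the median of members lay further below 0. Without WT replicate 2 these 6 stood at 0.18, 0.02, 0.11, 0.06, 0.06 and 0.06 in the same order, and 0 members passed (0.267% of genes). Rps4l was the one member with both KO libraries (3.37 and 4.42 CPM) below both WT libraries (6.81 and 7.15 CPM), where 14.3% of all genes did so, and 0 members had both above, where 17.7% did. Against WT replicate 1 alone, 1 member had both KO libraries below (33.0% of genes) and 66 had both above (31.7% of genes).

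The difference between the 2 genotype effects (KO against WT in TIL minus KO against WT in spleen) gave the same dependence. Its median over members was 0.96, against 0.07 for all genes, and without WT spleen replicate 2 it was -0.01. By edgeR's test 0 members passed, as 0% of 17870 genes did, with 0 members at an unadjusted p under 0.05 (7.83% of genes) and 0 by DESeq2 (1.85% of genes). Rpl35a (1.36, adjusted p = 0.739) and Rps4l (1.24) were among the highest by edgeR's fit and Rpl7l1 (-0.04), Rpl4 (0.34) and Rpl3 (0.38) the lowest. These 5 stood at 0.35, 1.13, 0.09, 0.09 and -0.04 in the same order without WT spleen replicate 2.

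**Figure D4:**
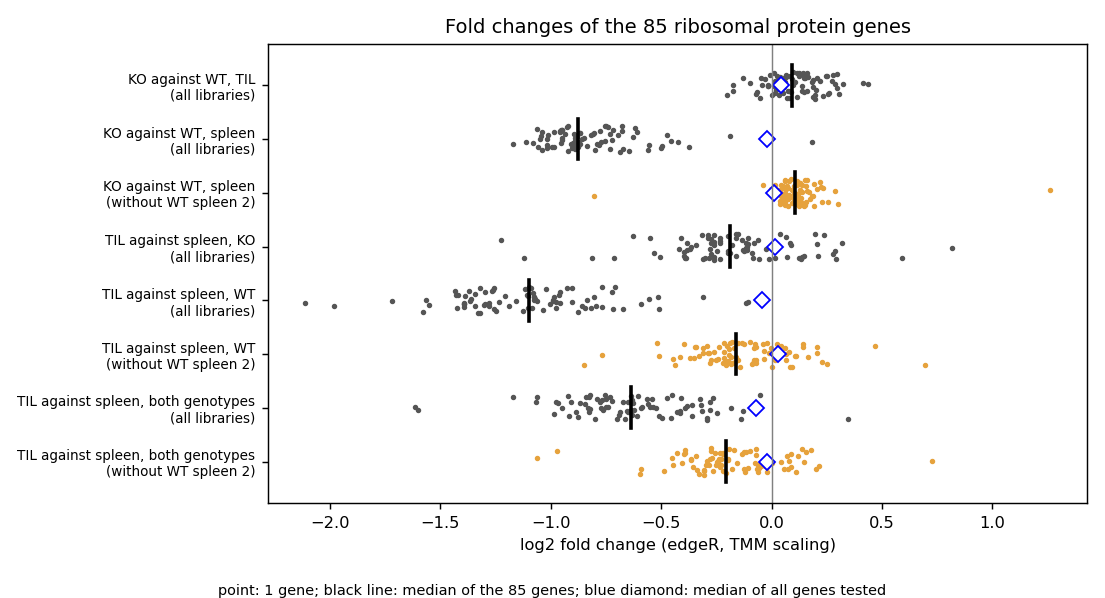
Log2 fold change (x axis, edgeR with TMM scaling) of each of the 85 genes in each comparison (rows), grey with all libraries and orange without WT spleen replicate 2. Black lines are medians of the 85 genes and blue diamonds medians of all genes tested. The KO against WT median in spleen moves from -0.87 to 0.11 and the TIL against spleen median in WT from -1.10 to -0.16 when that library is left out, and Rps27 and Rps27rt stay at the left.

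Between the tissues, most members had lower values in TIL than in spleen, by an amount that again depended on WT spleen replicate 2. In WT cells the median log2 fold change of TIL against spleen was -1.10 (all genes -0.04), with 85 of 85 below 0, and -0.16 without WT spleen replicate 2 (all genes 0.03), with 63 below 0. In WT cells 76 members had both TIL libraries below both splenic ones, where 33.2% of all genes did, and 0 above, where 19.5% did. Against WT spleen replicate 1 alone it was 77 below (52.8% of genes) and 1 above (26.4% of genes). With all 4 libraries the other 9 included Rps27l, Rpl36al, Rpl7l1 and Rpl39l. By edgeR's test 0 members passed in WT (5.97% of 16427 genes), though 30 had an unadjusted p under 0.05 (20.5% of genes), all lower in TIL. When WT spleen replicate 2 was left out, 0 passed (1.22% of genes) and 0 had an unadjusted p under 0.05 (15.7% of genes). With all 4 libraries DESeq2 called 2 members, Rps27 and Rps27rt (9.91% of genes). Without WT spleen replicate 1, the median of members in WT cells lay further below 0. In KO cells the median was -0.19 (all genes 0.01), with 65 below 0. In KO cells 35 members had both TIL libraries below both splenic ones, where 42.5% of all genes did, and 1 had both above, Rps27l, where 23.2% did. By edgeR's test 0 members passed in KO (1.35% of 16933 genes), 3 had an unadjusted p under 0.05 (31.0% of genes), namely Rps27, Rps27rt and Rps27l, and DESeq2 called 1, Rps27 (19.7% of genes). Without KO TIL replicate 1 the KO median lay above 0, and without KO TIL replicate 2 it lay further below 0.

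Averaged over both genotypes, a contrast added with the data at hand, the median member had a log2 fold change of -0.64 (all genes -0.07) with all 8 libraries and of -0.21 (all genes -0.02) without WT spleen replicate 2. With all 8 libraries 22 members had all 4 TIL libraries below all 4 splenic ones, where 16.4% of genes did, and 0 above, where 10.7% did. Against the other 3 splenic libraries it was 23 below (26.9% of genes) and 0 above (12.8% of genes). By edgeR's test 2 members passed (19.2% of genes), Rps27 and its copy Rps27rt, and 12 had an unadjusted p under 0.05 (35.4% of genes). DESeq2 called 4, these 2 with Rps21 and Rpl37a (20.6% of genes). Without WT spleen replicate 2, edgeR called 0 members (10.3% of genes) and 3 had an unadjusted p under 0.05 (32.6% of genes), and without WT spleen replicate 1 it called 30.

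Rps27, a zinc-binding protein of the small subunit, fell in TIL in this contrast. Its gene (chr3:90212522-90213651, minus strand, GRCm38), whose start is printed above, was at 988.5 and 2901 CPM in WT spleen, 1031 and 1266 CPM in KO spleen, 310 and 619 CPM in WT TIL, and 287 and 550 CPM in KO TIL. Each TIL library lay below each splenic one. The log2 fold change over both genotypes was -1.60 with a standard error of 0.42 and an edgeR adjusted p of 0.0309. Without WT spleen replicate 2 it was -1.06 and no longer past the threshold (adjusted p = 0.0783). The call was also lost without KO spleen replicate 1 (-1.62) or 2 (-1.51), KO TIL replicate 1 (-1.41) or WT TIL replicate 1 (-1.37), each of them still lower in TIL. Rps27rt, with 8.92 to 18.2 CPM in TIL and 27.2 to 96.5 CPM in spleen, had a log2 fold change of -1.61 (edgeR adjusted p = 0.0369), and its call was lost without each of the same libraries and also without KO TIL replicate 2 (-1.77), where Rps27 kept its own. Its counts were 0.0264 to 0.0333 of those of Rps27 over the 8 libraries, and the pair cannot be taken as independent values. Rps27l (chr9:66946086-66949516, plus strand), with the same coding length of 252 nt, did not follow. It was at 107 and 232.5 CPM in WT spleen, 125 and 112 CPM in KO spleen, 178 and 113 CPM in WT TIL, and 131 and 224.5 CPM in KO TIL, and over both genotypes its log2 fold change was 0.35 with a standard error of 0.33 (edgeR adjusted p = 0.489).

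A view that does not depend on the height of the whole family is the share of each gene in the summed counts of the 85 members. By this share, 9 members were lower in all 4 TIL than in all 4 splenic libraries, where 3.09% of all genes tested were lower when divided by the same sum, and 13 were higher, where 20.7% were. Without WT spleen replicate 2 it was 11 lower (10.1% of genes) and 20 higher (21.3% of genes). The sum was lower on average in TIL, so division by it moves other genes upward there, while the members stay centered. With canonical members as the scale, the median log2 fold change of all genes was 0.47. The percentages of all genes are therefore not a like background for the members. The share of Rps27 was 2.76% to 3.29% in spleen and 1.27% to 2.08% in TIL. That of Rpl37a, a zinc-binding protein of the large subunit, was 2.28% to 2.51% in spleen and 1.57% to 2.16% in TIL, and that of Rps19 was 2.89% to 3.10% and 2.37% to 2.57%. Rps23, Rpl36, Rps24, Rpl30, Rps21 and Rps27rt were the other 6 with a lower share. Higher shares were found for Rps2 (2.21% to 2.46% in spleen, 2.64% to 3.16% in TIL), Rpl4 (1.24% to 2.48%, then 2.69% to 2.86%) and Rpl3 (1.84% to 2.99%, then 3.06% to 3.32%), and for Rps27l, Rpl7, Rps6, Rpl7a, Rpl6, Rpl27, Rpl29, Rps26, Rpl28 and Rpl24. For 9 of these 13, Rpl3, Rpl4, Rps6 and Rpl7 among them, the lowest splenic value was that of WT replicate 2, and for 8 of the 9 with a lower share the highest splenic value was.

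By subunit, 5 of 30 canonical small subunit members and 3 of 43 large subunit ones had the lower share (3.09% of all genes). Of the same members, 3 small and 9 large subunit ones had the higher share (20.7% of all genes). These shares of all genes carry the limit given above. The summed counts of small subunit members over those of large subunit members were 0.904 and 0.962 in WT spleen, 0.914 and 0.922 in KO spleen, 0.826 and 0.828 in WT TIL, and 0.858 and 0.875 in KO TIL. The tissues did not overlap in this ratio, and in TIL neither did the genotypes, with 2 libraries in each group and no test. The sums weigh abundant members most, such as Rps27, whose share was lower in TIL. Coding length also went with the tissue difference in CPM of members, though not evenly. For the 4 TIL against the 3 concordant splenic libraries, the median log2 difference of members was -0.70 in the 12 of up to 300 nt and -0.35 in the 19 of over 600 and up to 900 nt, while the medians of other genes in all bins lay between -0.13 and -0.24. Over the canonical members the correlation with log2 coding length was 0.38, as a description. The part of length in the shares was not tested.

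**Figure D5:**
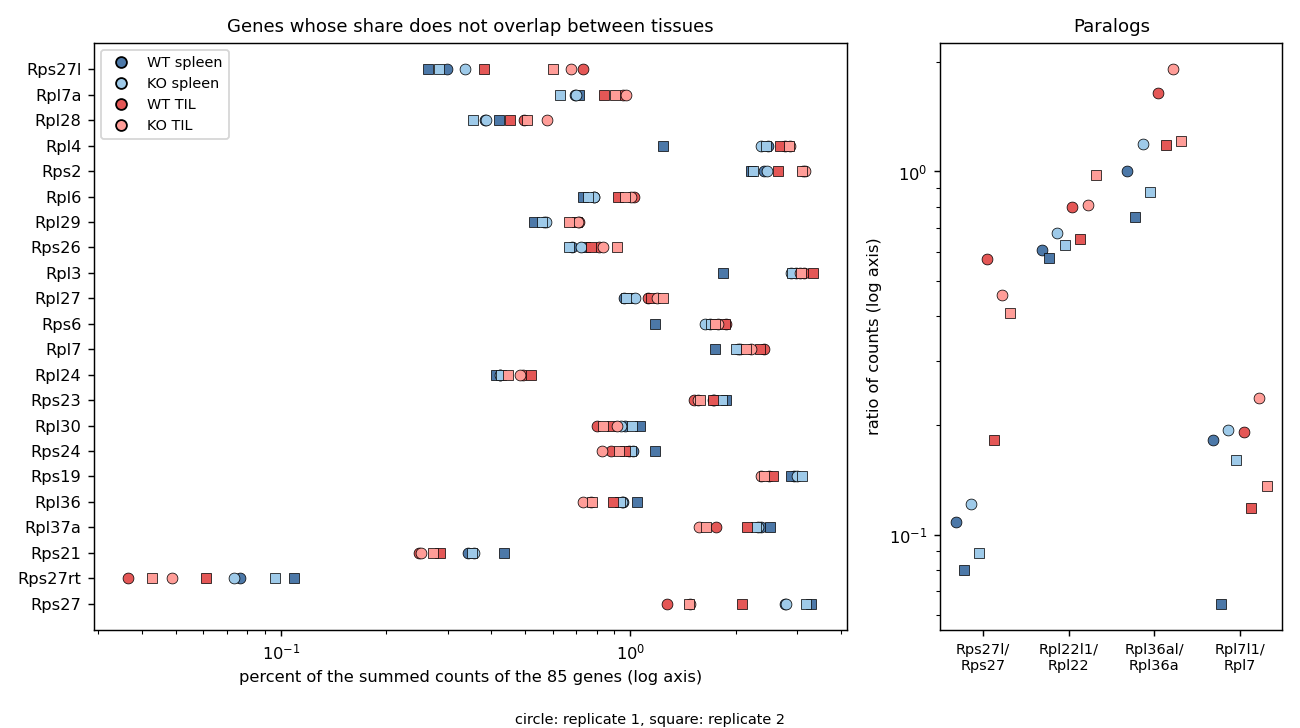
Left, share of the summed counts of the 85 genes (x axis, percent, log axis) in each library for the 22 genes whose TIL and splenic libraries do not overlap. Right, counts of a paralog over counts of its canonical partner (log axis), with circles for replicate 1 and squares for replicate 2. Rps27 lies at 1.27% to 2.08% in TIL and 2.76% to 3.29% in spleen, and the ratio of Rps27l to Rps27 is 0.183 to 0.574 in TIL and 0.0802 to 0.121 in spleen.

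With libraries scaled to the canonical members in place of all genes, the test gave the same order with no call. Rps27 then had a log2 fold change in TIL over both genotypes of -0.94 with a standard error of 0.34 (edgeR adjusted p = 0.122) and -0.88 without WT spleen replicate 2, and Rps27l had 1.01 with a standard error of 0.41 (adjusted p = 0.168) and 0.95. On this scale the median of all genes was 0.47. In WT cells Rps27 was at -0.83 and Rps27l at 0.99, and in KO cells Rps27 was at -1.04 and Rps27l at 1.021. The interaction of Rps27 on this scale was -0.20 (standard error 0.67), and that of Rps27l 0.03 (standard error 0.81).

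The ratio of Rps27l to Rps27 counts was 0.108 and 0.0802 in WT spleen, 0.121 and 0.0888 in KO spleen, 0.574 and 0.183 in WT TIL, and 0.457 and 0.408 in KO TIL. All 4 TIL libraries lay above all 4 splenic libraries, and WT TIL replicate 2 was the nearest to them. This same library had the lowest macrophage markers of the TIL (411 CPM) and the highest CD4 T cell markers (4477 CPM), and the part of other cells in the ratio was not tested. Cdkn1a, the p53 target that was on the list of regulators examined, was at 6.93 to 8.59 CPM in spleen and at 165 to 531 CPM in TIL. Its log2 fold change over both genotypes was 5.33 with a standard error of 0.43 (edgeR adjusted p = 0.000644). In TIL it was lowest in WT replicate 2, as the ratio was. It was highest in KO replicate 1, whereas the ratio was highest in WT replicate 1. A part of p53 in the ratio was not tested.

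Of the 10 other pairs formed, 9 overlapped between the tissues. The exception was Rps3a3 over Rps3a1, at 0.0165 to 0.0171 in spleen and 0.0149 to 0.0159 in TIL, where Rps3a3 is among the genes whose reads can be shared. Rpl22l1 over Rpl22 was 0.577 to 0.675 in spleen and 0.653 to 0.977 in TIL, with KO TIL replicate 2 the highest. In CPM, Rpl22 was at 134, 349.5, 133 and 136 in spleen (WT then KO) and at 79.2, 103, 58.3 and 113 in TIL, and Rpl22l1 at 81.5, 201.5, 90.1 and 85.2 in spleen and 63.3, 67.1, 47.2 and 111 in TIL. Rpl36al over Rpl36a was 0.752 to 1.19 in spleen and 1.18 to 1.91 in TIL, a narrow overlap. Rpl7l1 over Rpl7 was 0.0646 to 0.194 in spleen and 0.118 to 0.237 in TIL. Rpl39l stayed at 0.255 to 3.08 CPM, with counts that were 0.00181 to 0.00515 of those of Rpl39.

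Between KO and WT the shares hardly parted. Rps25 had a higher share in the 4 KO than in the 4 WT libraries (1.69% to 1.86% against 1.52% to 1.64%) and Rps13 a lower one (1.20% to 1.25% against 1.27% to 1.35%), and the other 83 overlapped, where 0.946% of all genes were higher and 0.274% lower when divided by the same sum. Leaving out WT spleen replicate 2, 2 were higher (Rps25 and Rps20, 1.19% of genes) and 2 lower (Rps13 and Rpl19, 3.14% of genes). Among the larger mean differences that overlapped were those of Rpl4, Rpl10 and Rps3a1 (0.34, 0.29 and 0.27 percentage points, KO minus WT) and of Rpl37a and Rps14 (-0.24 and -0.18). With that library left out these 5 were -0.01, 0.24, 0.12, -0.14 and -0.03 percentage points in the same order. Rps14, the gene lost in the 5q- syndrome, had 514 and 756 CPM in WT TIL and 446 and 819 CPM in KO TIL.

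Other members picked by role, whatever their values, followed the family. Rps27a, made as a fusion with ubiquitin, was at 497 and 1252 CPM in WT spleen, 513 and 530 CPM in KO spleen, 320 and 346 CPM in WT TIL, and 282.5 and 501 CPM in KO TIL. Rpl38, which helps to select Hox mRNAs for translation, was at 178 and 516 CPM in WT spleen, 179 and 187 CPM in KO spleen, 134 and 149 CPM in WT TIL, and 94.4 and 196 CPM in KO TIL. Rpl41, the smallest ribosomal protein, ranged from 493 to 544 CPM in 3 splenic libraries, stood at 1410 CPM in WT spleen replicate 2, and ranged from 278 to 620 CPM in TIL. Rps29 was at 503 to 644 CPM in the same 3, at 1503 CPM in WT spleen replicate 2 and at 287 to 449 CPM in TIL, all below spleen. Rps4x, on the X chromosome, was at 528 to 625 CPM, 1518 CPM and 317 to 626 CPM in the same order, so that KO TIL replicate 2 reached the splenic range. Rps19bp1, the partner of Rps19 and not a ribosomal protein, was at 10.2 to 13.3 CPM, 21.2 CPM and 9.56 to 11.3 CPM.

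Ribosomal protein genes that the naming rule leaves out behaved like the members. Rplp0, Rplp1 and Rplp2 of the stalk, Rpsa and Fau summed to 3658 to 3911 CPM in 3 splenic libraries, 8747 CPM in WT spleen replicate 2, 2790 and 3304 CPM in WT TIL and 2132 and 3949 CPM in KO TIL, and 0 of these 5 passed the test in any comparison. Between TIL and spleen over both genotypes, Rplp1 and Rplp2 had log2 fold changes of -0.98 and -0.84 (edgeR adjusted p = 0.1003 and 0.135) and Rplp0 had -0.23. The genes of at least 10 CPM whose log2 CPM ran closest to the mean of the canonical members over the 8 libraries, among 8885 compared, were Dpm3 (root mean square distance 0.06), Eef1b2, a subunit of the elongation factor complex (0.06), Gm12174, Rpsa-ps10 and Gm2000. Dpm3 had 54.7 CPM in WT spleen replicate 2 and 10.8 to 22.4 CPM elsewhere. The canonical members themselves had a median distance of 0.12 and the non-member genes one of 0.81.

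Lists of related genes differed in whether their sums shared the excess of WT spleen replicate 2. The 48 ribosome biogenesis genes did not, and summed to 3208 CPM there and 3565 to 3744 CPM in the other splenic libraries, and 30 translation initiation factors to 6872 CPM against 7708 to 8008 CPM. The 23 elongation factors and other TOP genes measured were higher there, with 18391 CPM against 11560 to 12237 CPM, and so were 78 mitochondrial ribosomal protein genes, with 6200 CPM against 3934 to 4114 CPM. None of these 4 lists had a gene past the threshold of edgeR's test in TIL against spleen over both genotypes. The medians were -0.10 for the elongation and TOP genes, 0.11 for biogenesis, 0.28 for initiation factors and -0.19 for mitochondrial ribosomal proteins (all genes -0.07). Without WT spleen replicate 2 they were 0.10, 0.06, 0.27 and 0.0069 in the same order (all genes -0.02). Of 26 tested regulators of mTOR, Myc and the 5S particle, 5 passed, the same 19.2% as over all genes. Of these, 3 rose in TIL, Cdkn1a, Sesn2 (log2 fold change 1.21, adjusted p = 0.0150) and Eif4ebp1, an mTOR-regulated brake on cap-dependent translation (1.65, adjusted p = 0.0189), and 2 fell, Sesn3 (-1.64, adjusted p = 0.00426) and Sesn1 (-1.10, adjusted p = 0.0258), by edgeR's test. Sesn1 lies outside the rule for named genes and was chosen after its values were seen. Eif4ebp1 was at 21.2 to 37.8 CPM in spleen and 44.3 to 119 CPM in TIL. In TIL eTreg cells between KO and WT, 0 genes of any of these lists passed, and the medians were 0.31 for biogenesis, 0.10 for initiation factors and 0.03 for mitochondrial ribosomal proteins (all genes 0.04).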

How the data were processed

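The authors depleted rRNA, primed with random hexamers, trimmed reads with Trimmomatic 0.36, aligned them to GRCm38 with STAR 2.5.2b and deposited raw counts per gene of unique reads in exons, from featureCounts of Subread 1.5.2. Whether counting used strand is not stated, so overlapping and antisense genes cannot be told apart. The deposited normalized table holds a signal equal to the count divided by a size factor of each library (0.839 to 1.48), and multiplying back recovered the whole reads of the count files for 100% of its values.

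The members and lists were chosen with earlier results of these data known. Counts were tested with edgeR 4.0.16 in R 4.3.3 (limma 3.58.1), by its quasi-likelihood test. Genes were kept by filterByExpr and scaled by TMM, in the 4 libraries of each comparison, or in all 8 for the difference between genotype effects and for the tissue contrast over both genotypes, which was added after seeing the data. Standard errors are the log2 fold change divided by the square root of F. All 85 members passed the filter. DESeq2 1.42.0, other scalings and filters, a replicate block and fits without each library in turn were alternatives, as was TPM for shares (sums of length-scaled counts). The test was tested on simulated data. Summed shares got no test. Floors cover counting error only. Within each group the 2 libraries differed beyond sampling noise (chi-square over degrees of freedom, 28.9 to 247.9).

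Genes named are members picked by role or paralog, the 3 highest and 3 lowest fold changes and differences in share of the summed members, those past the threshold, the 5 highest levels, ribosomal protein genes outside the naming rule, the 5 closest patterns and up to 4 genes of smallest p in each list. Some items that this rule covers are not reported here. Coding lengths came from GENCODE M21, for 80 members.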

Additional observations from a re-analysis of the deposited data

Results flagged for a closer look

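In the 4 splenic libraries, the summed share of the 85 ribosomal protein genes in WT replicate 2, 8.83%, stood apart from the other 3, with a gap of 0.926 of the whole range (above Dixon's 95% critical value for 4 values, which chance passes in about 1 of 20 groups). Among the 73 canonical members taken one by one, 70 had 1 splenic library far from the other 3 by the same measure, and in 70 of them it was this library. These genes move together, so the 70 are not separate events. The same measure was not taken over all genes, and other genes also differed in this library by coding length, as given above. The count is therefore not a trait shown to be particular to the members. In the 4 TIL libraries, whose gap for the summed share was 0.423 of the range, 0 canonical members stood out in this way.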

How the results depend on the processing

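Counts of called members moved with the tool and the filter only between TIL and spleen. In WT cells, where 0 were called, DESeq2 gave 2, no filter on low counts 6 and the replicate block 2, and in KO cells, where 0 were called, DESeq2 gave 1 and no filter 1. Over both genotypes, where 2 were called, canonical members alone gave 1, and DESeq2, library totals without TMM, no filter and the replicate block gave 4 each. For the fits without TMM, without a filter or with the block, the shares of all genes called are not at hand. The replicate block left 0 called in the other 3 comparisons, with medians of 0.05, -0.66 and 0.71, and -0.91, -0.25 and -0.63 between the tissues in WT, KO and both. The replicate numbers are not stated to pair libraries, and replicate deviations correlated between -0.22 and 0.234 across groups. Crossing the numbers in KO cells called 0. Over all genes, edgeR and DESeq2 called 0 and 761 between KO and WT in TIL, 0 and 75 in spleen, 981 and 1805 between the tissues in WT, 228 and 3813 in KO, and 0 and 307 for the difference of genotype effects.

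Leaving out 1 library of a group assumes that the lone library varies like the other groups. Called members then ranged from 0 to 74 for KO against WT in spleen (74 without WT spleen replicate 1), 0 to 64 between the tissues in WT (64 without the same library), 0 to 7 in KO (7 without KO TIL replicate 2, 1 without KO TIL replicate 1), and 0 to 30 over both genotypes (30 without WT spleen replicate 1, and 0 or 1 without each of 6 other libraries). For KO against WT in TIL the median was -0.42 when KO TIL replicate 2 was left out and 0.46 when replicate 1 was. Elsewhere medians ranged from -1.38 to 0.11 in spleen, -1.65 to -0.16 between the tissues in WT and -0.65 to 0.18 in KO. Over both they ranged from -0.89 to -0.21, and for the difference of genotype effects from -0.0060 to 1.50. WT spleen replicates 1 and 2 set the ends in spleen, WT tissues and the difference. The ends between the tissues in KO were set by KO TIL replicates 2 and 1.

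Shares by TPM were 6.42% in KO spleen, 4.75% in KO TIL and 4.65% in WT TIL, since TPM weights short genes more. Of 533 fold changes of single members recomputed, 477 kept their side of the threshold and their direction or moved by under 1 standard error, 23 newly passed, 15 no longer passed, 18 that were not called changed sign by more than 1 standard error, and 0 called ones reversed.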
